A study of Mus musculus with 40 samples.

Results

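A set of 9 transcription factors that specify or maintain macrophage identity were followed through an inflammatory response: Spi1 (which encodes PU.1), Cebpa, Cebpb, Cebpd, Maf, Klf2, Klf4, Klf6 and Runx1. They were picked by gene symbol, and the 9 symbols each matched 1 of the 27179 genes in the expression table. The cells were bone marrow-derived macrophages (BMDMs), grown from the marrow of adult male mice in medium with M-CSF, on a mixed C57BL/6J and 129 background. WT mice were compared with Cpeb4-/- mice (labelled CPEB4-KO), which lack the RNA-binding protein CPEB4, and the labels name no Cre driver or floxed allele. Cells of 4 WT mice (25, 69, 87 and 88) and 4 Cpeb4-/- mice (2, 3, 55 and 62) were left untreated or given 10 ng/ml LPS, a bacterial membrane component, for 1, 3, 6 or 9 hr. Each mouse gave 1 library at each of the 5 times, so that the 40 libraries form 10 groups of 4.

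PU.1, the product of Spi1, opens enhancers in myeloid cells and is needed for the lineage to form. C/EBPα acts with it during myeloid differentiation, whereas C/EBPβ and C/EBPδ are the inducible members of that family and act on cytokine genes. RUNX1 works upstream of PU.1 in blood progenitors, MAF restrains self-renewal and drives Il10 in mature macrophages, and KLF2 and KLF4 limit inflammatory activation while KLF6 promotes it.

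The promoters of members that moved in opposite directions after LPS are given first, because the time courses below turn on that contrast. In the RefSeq promoter table (GRCm38.p6) 6 of the 9 members had a window, and Spi1, Cebpd and Maf had none. On this build Spi1 lies at chr2:91082374-91115759, Cebpd at chr16:15887286-15889545, Maf at chr8:115703253-115706894 and Runx1 at chr16:92601466-92826074. The 120 bases before the annotated start are printed 5′ to 3′ on the strand of the gene, with capitals marking matches, on either strand, to the TATA box TATAAA, the KLF-type box CCACCC, the GC box GGGCGG or the MEF2 consensus, searched by name. The first 3 genes fell after LPS, and the last 2 rose.
Cebpa (chr7:35119173-35119292, plus strand): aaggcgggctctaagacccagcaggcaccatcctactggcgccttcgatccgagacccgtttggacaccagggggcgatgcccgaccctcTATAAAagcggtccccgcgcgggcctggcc
Klf2 (chr8:72318942-72319061, plus strand): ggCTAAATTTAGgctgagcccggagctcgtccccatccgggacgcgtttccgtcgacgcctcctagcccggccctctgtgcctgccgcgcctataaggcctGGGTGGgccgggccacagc
Klf4 (chr4:55532476-55532595, minus strand): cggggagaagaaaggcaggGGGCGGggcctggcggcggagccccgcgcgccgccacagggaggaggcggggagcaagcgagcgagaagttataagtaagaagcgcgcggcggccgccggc
Cebpb (chr2:167688795-167688914, plus strand): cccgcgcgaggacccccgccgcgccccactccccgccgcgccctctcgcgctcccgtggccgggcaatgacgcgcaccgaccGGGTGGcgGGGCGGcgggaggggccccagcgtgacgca
Klf6 (chr13:5861369-5861488, plus strand): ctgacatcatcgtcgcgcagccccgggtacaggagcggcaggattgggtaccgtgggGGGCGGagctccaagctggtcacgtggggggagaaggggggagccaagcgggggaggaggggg

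Within the 250 bases before the start, Cebpa alone of these 5 genes held TATAAA, 30 bases before the start, a motif found in 12.4% of all 32851 windows. Klf2 alone held the MEF2-type pattern (3.2% of windows), 118 bases before the start. GGGCGG (32.7% of windows) stood 5 times in Cebpb, 4 times in Klf4, 2 times in Klf2 and 1 time in Klf6, with neighbouring copies overlapping in Cebpb and Klf4. CCACCC (28.1% of windows) was present in Cebpb, Cebpa and Klf2. None of the member windows held the cAMP response element TGACGTCA (1.55% of windows) or the AP-1 site TGANTCA (6.75% of windows). The C/EBP site TTGCNNAA (9.56% of windows), the PU.1 site GAGGAAG (10.6% of windows) and the NF-kB consensus searched by name (3.9% of windows) were also without a match in them. The GC content of the 250 bases was 81.6% in Cebpb, 74.0% in Klf4, 71.2% in Klf2, 66.4% in Cebpa and 64.8% in Klf6, against a median of 52.4% over all windows. Thus among these 5 genes those that rose and those that fell shared GC-rich windows. The windows of Runx1, which are not printed, had a GC content of 45.6% and 67.6%. A match is a description of the letters only.

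The values are rlog, a log2 scale on which the authors corrected library size and pulled weakly expressed genes toward their mean, so a fold change given below understates that of a low gene. Read depth cannot be read from this scale. Libraries of one group correlated with r from 0.9982 to 0.9994 across genes, and no 2 libraries were identical. Cpeb4 itself was lower in Cpeb4-/- libraries at 6 hr, by -1.27 (SE 0.19, adjusted p = 0.00114, limma), with values of 10.42, 10.67, 10.09 and 10.62 in WT and 8.87, 9.45, 9.66 and 8.74 in Cpeb4-/-. At the other 4 times the genotypes overlapped for Cpeb4. The table sums a whole gene, so it does not say which exons were read, and outside 6 hr the genotypes stand as labelled. All 10 macrophage markers listed (among them Adgre1, Cd68 and Csf1r) passed the filter. Their summed antilog level was 570000 to 900000 per library, against 46.7 to 164 for 6 dendritic cell markers, 72 to 285 for 10 neutrophil markers, 28.4 to 99.8 for 5 B cell markers, 48.8 to 716 for 6 stromal markers, 107 to 457 for 7 T and NK cell markers and 2.17 to 5.46 for 5 mast cell markers. The 6 erythroid markers summed to 4.64 to 8.55 and the 5 progenitor and cycling markers to 4630 to 20700, and 2 erythroid and 2 mast cell markers were at 0 in every library. Some of these sums moved with LPS. In WT the stromal markers lay at 48.8 to 54.1 untreated and at 381 to 432 after 6 hr, and the T and NK cell markers at 143 to 182 untreated and at 308 to 457 after 3 hr. The dendritic cell markers lay at 46.7 to 78.4 untreated and at 141 to 164 after 3 hr, whereas the progenitor and cycling markers were at 10500 to 12800 untreated and lower, at 5110 to 5990, after 6 hr. The part of these markers in the LPS changes below was not tested. Each of the 2 batches held 2 mice of each genotype, and no cage held both genotypes, so cage and genotype cannot be told apart. Fewer cells of a type and less RNA per cell cannot be told apart in these bulk libraries.

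Levels of different genes were compared per kb, as rlog minus log2 of the length in kb of the longest transcript matched to a curated RefSeq mRNA. In untreated WT cells Spi1 stood highest at 12.93 ± 0.10 (SD, n = 4), followed by Cebpb at 11.96 ± 0.08 and Klf6 at 11.89 ± 0.02. Maf followed at 10.76 ± 0.07 and Cebpa at 9.91 ± 0.07. Klf2 (8.69 ± 0.12), Cebpd (8.67 ± 0.08) and Runx1 (8.57 ± 0.12) were next, and their libraries overlapped at the lengths used. The transcripts used for Cebpd (3.746 kb) and Maf (6.36 kb) are longer than the RefSeq spans given above. The level of both genes, and the place of Cebpd beside Klf2 and Runx1, therefore depend on the length chosen. Klf4 was lowest at 6.95 ± 0.16. After 6 hr of LPS, Cebpb (13.93) and Spi1 (13.92) led in WT, and Cebpa had dropped from the fifth to the seventh place at 7.30. Some exon bases are shared with a gene on the opposite strand, namely 20.7% of Cebpb with Tmem189, 15% of Cebpd with Spidr and 5.34% of Maf with Gm15655. The strand setting of the counting is not given in the sources used here, and the library kit does not mark strand, so reads from those bases cannot be told apart.

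**Figure D1:**
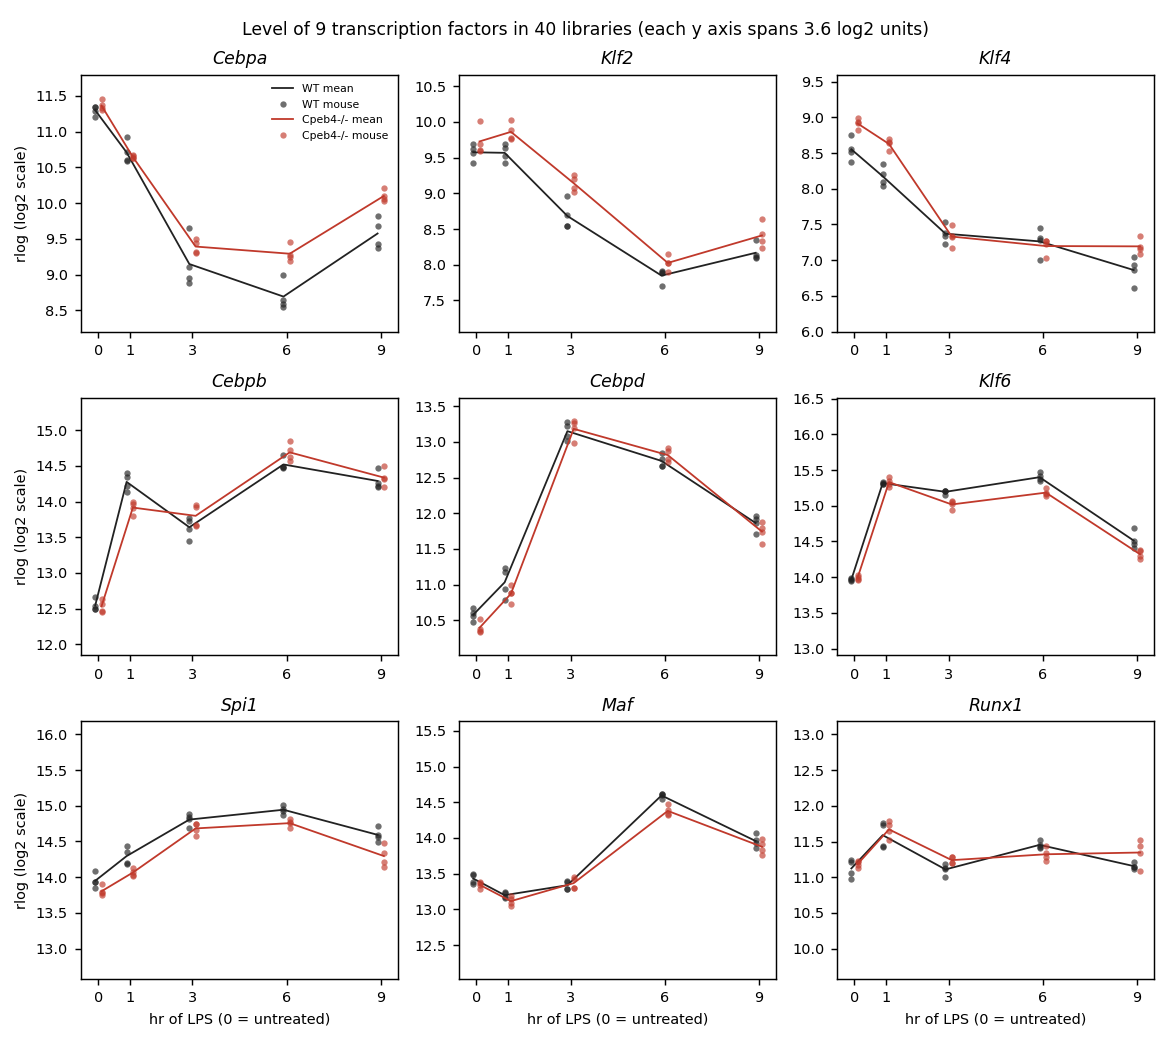
Level of each of the 9 transcription factors (rlog, log2 scale) against hr of LPS, with 0 for untreated cells. Points are single mice, lines join group means, WT is black and Cpeb4-/- red, 4 mice each. Cebpa dropped from 11.30 to 8.69 in WT by 6 hr while Cebpd climbed from 10.58 to 13.15 by 3 hr, and at 6 hr all 4 red points of Cebpa lie above the 4 black ones.

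The first comparison asked how each factor changed after LPS within a genotype, in 1 limma fit over all 40 libraries and 13103 genes, with p-values adjusted by Benjamini-Hochberg over all of them. In WT cells at 1 hr, 5 members rose (19.4% of all genes did) and 3 fell (18.3%). At 3 hr 4 rose (33.5%) and 3 fell (36.4%), at 6 hr 6 rose (39.7%) and 3 fell (40.2%), and at 9 hr 5 rose (37.0%) and 3 fell (36.6%). In Cpeb4-/- cells the counts were 5 risen (22.6% of all genes) and 3 fallen (19.4%) at 1 hr, and 4 (33.7%) and 3 (36.2%) at 3 hr. They were 5 (38.4%) and 3 (39.5%) at 6 hr and 5 (35.7%) and 3 (35.6%) at 9 hr. From 3 hr on most genes of these cells passed the test in one direction or the other, so the size of the members' changes says more than their calls. The directions of Cebpa, Klf2 (from 3 hr) and Klf4 (down) and of Cebpb, Cebpd and, up to 6 hr, Klf6 (up) were the same after quantile normalization. That scaling forces one distribution on all libraries and lowered the changes of the most abundant members, and the members whose change from untreated cells it turned are given with their values below. Over all genes it lowered the share of rises among the calls at 1 hr from 51.5% to 37.8% in WT and from 53.8% to 37.9% in Cpeb4-/-, while the members were then 4 risen and 3 fallen in both.

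Cebpa, the C/EBP of myeloid differentiation, fell the furthest. Untreated WT libraries were at 11.21, 11.35, 11.29 and 11.35, and at 1 hr they were at 10.59, 10.93, 10.60 and 10.72. By 3 hr they had reached 8.96, 9.65, 8.88 and 9.11, and at 6 hr they stood at 8.55, 8.99, 8.64 and 8.59. No library at 1 hr or later overlapped the untreated ones, and WT mouse 69 kept the highest value from 1 to 9 hr. The fall was 2.61 on the log2 scale at 6 hr, 6.10-fold (SE 0.11, adjusted p = 6.62e-22). From 6 to 9 hr Cebpa recovered by 0.88 in WT (SE 0.11, adjusted p = 1.75e-08) to 9.57 ± 0.21 (SD, n = 4), still 3.31-fold under the untreated level. In Cpeb4-/- libraries it went from 11.37 ± 0.07 untreated to 10.65 ± 0.02 at 1 hr and 9.39 ± 0.10 at 3 hr, and after a low of 9.29 ± 0.11 at 6 hr it stood at 10.10 ± 0.08 at 9 hr. The lowest Cpeb4-/- group, that of 6 hr, overlapped the 3 hr group, and in WT the groups of 6 and 3 hr also overlapped.

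Cebpb and Cebpd, the inducible C/EBPs, rose with different timing. Cebpb went within 1 hr from 12.49, 12.54, 12.66 and 12.49 to 14.21, 14.14, 14.40 and 14.35 in WT, a rise of 1.73 (3.32-fold, SE 0.08, adjusted p = 6.66e-20). Every WT library then fell back at 3 hr, to 13.77, 13.61, 13.73 and 13.45, a drop from 1 hr of -0.64 (SE 0.08, adjusted p = 1.11e-08), and rose again to 14.48, 14.48, 14.65 and 14.47 at 6 hr. In Cpeb4-/- libraries the step from 1 to 3 hr was -0.12 (SE 0.08, 95% CI -0.28 to 0.05, adjusted p = 0.208), from 13.92, 13.96, 13.80 and 13.99 to 13.66, 13.93, 13.65 and 13.95. It was -0.37 (adjusted p = 0.000178) after quantile normalization, and whether that step itself differed between genotypes was not tested. The later drop of Cebpb in WT from 6 to 9 hr, -0.23 (SE 0.08, adjusted p = 0.0137), missed the threshold without WT mouse 25 (-0.22, adjusted p = 0.0576) or mouse 87 (-0.16, adjusted p = 0.128), and under quantile normalization it turned to 0.07. Quantile normalization lowered the WT rise of Cebpb at 6 hr from 1.97 to 1.09 and at 3 hr from 1.09 to 0.51, both still called (adjusted p = 1.72e-14 and 1e-06).

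Cebpd, by contrast, moved little in the first hour, from 10.48, 10.56, 10.67 and 10.61 to 10.79, 10.94, 11.23 and 11.18 in WT (0.45, SE 0.08, adjusted p = 2.53e-05). It then reached 13.23, 13.08, 13.28 and 13.01 at 3 hr, a rise of 2.57 over untreated (5.94-fold, SE 0.08, adjusted p = 3.25e-25). All 4 libraries of 3 hr lay above those of every other time. Levels fell afterwards to 12.73 ± 0.09 at 6 hr and 11.86 ± 0.11 at 9 hr (SD, n = 4). The Cpeb4-/- course was alike in shape, from 10.40 ± 0.09 untreated to 13.18 ± 0.14 at 3 hr (2.79, SE 0.08, adjusted p = 2.91e-26) and 11.74 ± 0.13 at 9 hr.

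Of the KLF factors, Klf2 and Klf4 fell and Klf6 rose. Klf2, a regulator of quiescence in leukocytes and endothelium, stood at 9.42, 9.69, 9.53 and 9.63 after 1 hr in WT, overlapping the untreated 9.42, 9.56, 9.63 and 9.69. The change was -0.01 (95% CI -0.20 to 0.19), and in Cpeb4-/- cells it was 0.13 (95% CI -0.06 to 0.33), neither of them called. It then fell to 8.54, 8.96, 8.54 and 8.69 at 3 hr and to 7.88, 7.90, 7.70 and 7.92 at 6 hr, 1.73 below untreated (3.31-fold, SE 0.10, adjusted p = 2.31e-18). A partial return followed at 9 hr, to 8.17 ± 0.12 (SD, n = 4), by 0.32 over 6 hr (SE 0.10, adjusted p = 0.00491). Cpeb4-/- cells had the same low point at 6 hr, 8.03 ± 0.10, and returned by 0.38 (SE 0.10, adjusted p = 0.000957).

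Klf4, which like Klf2 restrains NF-kB targets in macrophages, was the least abundant member and had its lowest mean at 9 hr in WT. Its libraries were at 8.52, 8.75, 8.37 and 8.56 untreated, at 7.34, 7.38, 7.22 and 7.54 after 3 hr and at 6.61, 6.86, 7.04 and 6.93 after 9 hr. The fall at 9 hr was 3.23-fold (-1.69, SE 0.09, adjusted p = 3.74e-18), and the groups of 9, 6 and 3 hr overlapped with their neighbours. In WT the step from 3 to 6 hr was -0.11 (95% CI -0.30 to 0.08) and not called. That from 6 to 9 hr was -0.40 (SE 0.09, adjusted p = 0.000425). Untreated Cpeb4-/- libraries were higher, at 8.82, 8.91, 8.99 and 8.94, and fell by 1.72 at 6 hr (SE 0.09, adjusted p = 1.53e-18), after which the step to 9 hr was -0.00439 (95% CI -0.19 to 0.19). The early fall at 1 hr in Cpeb4-/- cells (-0.29, adjusted p = 0.0126) missed the threshold without Cpeb4-/- mouse 55 (-0.23, adjusted p = 0.118).

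Klf6, an early response factor, rose within 1 hr. WT libraries were at 13.97, 13.95, 13.99 and 13.96 untreated and at 15.33, 15.31, 15.31 and 15.32 after 1 hr, a rise of 1.35 (2.55-fold, SE 0.04, adjusted p = 1.3e-24). The level held at 15.20 ± 0.03 at 3 hr and 15.40 ± 0.05 at 6 hr (SD, n = 4) before it dropped to 14.51 ± 0.12 at 9 hr. The rise that remained at 9 hr was 0.55 in WT (SE 0.04, adjusted p = 1.15e-13) and 0.33 in Cpeb4-/- (SE 0.04, adjusted p = 2.8e-08), but it turned to -0.07 and -0.21 under quantile normalization. At 1, 3 and 6 hr that scaling gave WT rises of 0.85, 0.57 and 0.56, all called. The small step of Klf6 down from 1 to 3 hr in WT (-0.12, adjusted p = 0.0145) missed the threshold without WT mouse 88 (-0.11, adjusted p = 0.0686), and the step up from 3 to 6 hr (0.20, adjusted p = 0.0001) was -0.01 under quantile normalization.

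Spi1, the most abundant member per kb in untreated cells, rose slowly. Its WT libraries went from 13.85, 13.93, 14.08 and 13.93 untreated to 14.96, 14.93, 15.02 and 14.87 at 6 hr, 0.99 higher (1.99-fold, SE 0.06, adjusted p = 1.43e-16), with no overlap. In Cpeb4-/- cells they went from 13.79, 13.74, 13.90 and 13.78 to 14.77, 14.68, 14.76 and 14.81, 0.95 higher (SE 0.06, adjusted p = 5.16e-16). This rise depended on the scaling: after quantile normalization it was 0.11 in WT (adjusted p = 0.089) and 0.13 in Cpeb4-/- (adjusted p = 0.0479) at 6 hr. At 1 hr the rises of 0.35 in WT and 0.26 in Cpeb4-/- turned to -0.01 and -0.09, and at 9 hr the rise of 0.49 in Cpeb4-/- turned to -0.09. At 9 hr in WT the rise of 0.64 became 0.06 (adjusted p = 0.406).

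Maf dipped before it rose. WT libraries were at 13.50, 13.35, 13.39 and 13.49 untreated, at 13.24, 13.17, 13.16 and 13.22 after 1 hr and at 14.61, 14.60, 14.55 and 14.62 after 6 hr. The dip at 1 hr was -0.23 in both genotypes (SE 0.05, adjusted p = 0.000197 in WT and 0.000218 in Cpeb4-/-), values of -0.51 and -0.52 after quantile normalization, and the rise from 3 to 6 hr was 1.26 in WT (2.39-fold, SE 0.05, adjusted p = 8.16e-22) and 1.01 in Cpeb4-/- (SE 0.05, adjusted p = 3.29e-19). Over untreated cells the level at 6 hr was 1.16 higher in WT (SE 0.05, adjusted p = 6.24e-22), a value of 0.25 after quantile normalization, still called (adjusted p = 6.84e-05). At 9 hr the level was 0.53 above untreated in both genotypes, which turned to -0.10 in WT and -0.04 in Cpeb4-/- under that scaling. The step from 1 to 3 hr, 0.14 in WT (adjusted p = 0.0133) and 0.25 in Cpeb4-/- (adjusted p = 3.05e-05), turned to -0.20 and -0.05, and in WT it missed the threshold without mouse 88 (0.13, adjusted p = 0.0621). The Cpeb4-/- level of Maf at 3 hr, 0.02 above untreated and not called, was -0.58 under quantile normalization and called (adjusted p = 3.77e-12). The WT level at 3 hr, -0.09 from untreated (adjusted p = 0.0896), was called with the mouse as a block (adjusted p = 0.0285), and it was -0.71 after quantile normalization (adjusted p = 1.73e-14).

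Runx1 moved the least, over a span of 0.56 between its lowest and highest group means against 2.79 for Cebpd. It rose at 1 hr in WT from 11.24, 11.21, 10.98 and 11.06 to 11.76, 11.73, 11.43 and 11.44 (0.47, SE 0.07, adjusted p = 3.19e-06) and by 0.49 in Cpeb4-/- (SE 0.07, adjusted p = 1.46e-06). By 3 hr it was back at 11.11 ± 0.08 in WT and 11.24 ± 0.05 in Cpeb4-/- (SD, n = 4). The second WT rise, 0.33 at 6 hr (SE 0.07, adjusted p = 0.000151), turned to -0.05 under quantile normalization, which also turned the values of 0.06 at 3 hr and 0.14 at 6 hr in Cpeb4-/- to -0.20 and -0.21, and those of 0.03 in WT and 0.16 in Cpeb4-/- at 9 hr to -0.19 and -0.08. The WT value of -0.01 at 3 hr became -0.27 under it and was called (adjusted p = 0.00127). With the mouse as a block, the Cpeb4-/- changes of 0.14 at 6 hr and 0.16 at 9 hr passed the threshold (adjusted p = 0.0378 and 0.0169), where without it they did not (0.0922 and 0.0519). At 9 hr it also passed without Cpeb4-/- mouse 2 (0.23, adjusted p = 0.00887), WT mouse 25 (0.16, adjusted p = 0.0491) or WT mouse 87 (0.16, adjusted p = 0.0429).

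Between successive times, all 9 members moved from 1 to 3 hr in WT (62.9% of all genes did) and 8 in Cpeb4-/- (62.2%). From 3 to 6 hr 7 moved in WT (66.8%) and 5 in Cpeb4-/- (62.9%), and from 6 to 9 hr 9 in WT (54.4%) and 7 in Cpeb4-/- (51.5%). The turn from 6 to 9 hr separated the members: Cebpa and Klf2 rose in both genotypes, while Spi1, Cebpd, Maf and Klf6 fell in both, also after quantile normalization except for Spi1 in WT (-0.05, adjusted p = 0.462). Cebpb fell in both on the deposited values and was not called after quantile normalization (0.07 in WT and -0.09 in Cpeb4-/-).

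**Figure D2:**
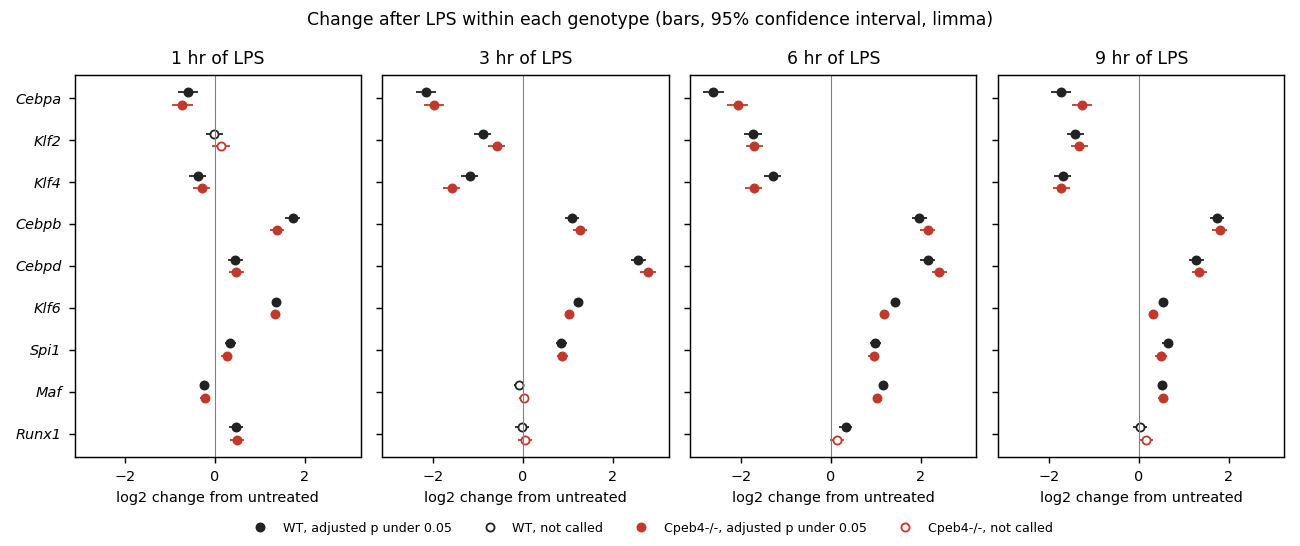
Log2 change of each member from untreated cells (x axis) at 1, 3, 6 and 9 hr of LPS, WT in black and Cpeb4-/- in red, with 95% confidence intervals. Filled circles had an adjusted p under 0.05. Cebpa, Klf2 and Klf4 lie left of 0 from 3 hr on and Cebpb, Cebpd, Klf6 and Spi1 right of it, although after quantile normalization Klf6 at 9 hr in both genotypes, and Spi1 at 1 hr in both and at 9 hr in Cpeb4-/-, are left of 0 or at it.

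**Figure D3:**
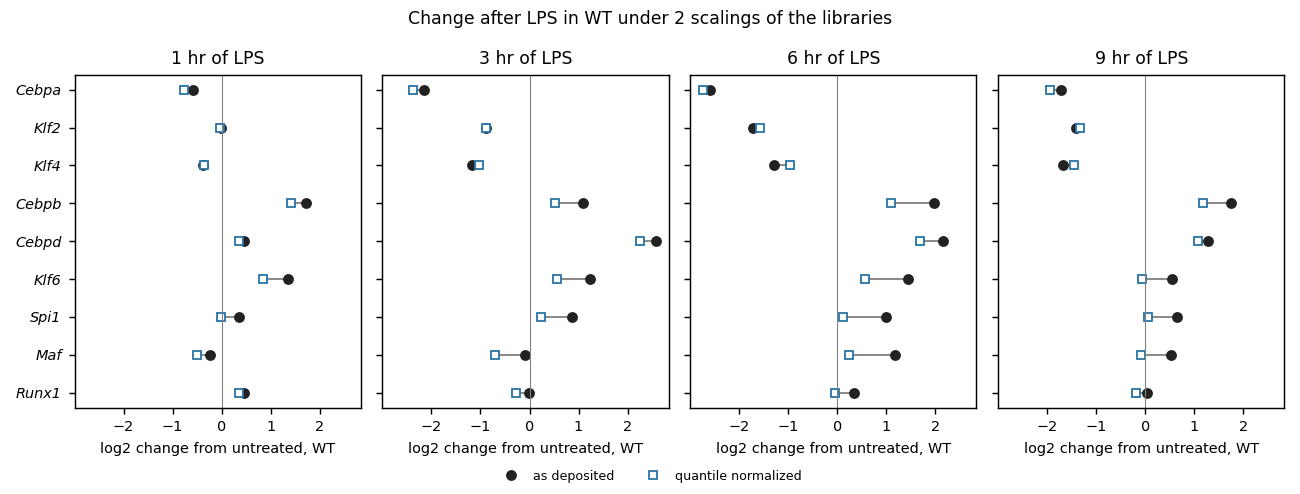
Log2 change of each member from untreated WT cells (x axis) on the values as deposited (black circles) and after quantile normalization (blue squares). The falls of Cebpa, Klf2 and Klf4 moved little, the rises of Cebpb, Klf6, Spi1 and Maf shrank, that of Spi1 at 6 hr from 0.99 to 0.11, and Spi1 at 1 hr, Runx1 at 6 and 9 hr and Maf and Klf6 at 9 hr changed side.

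The second comparison asked whether loss of CPEB4 changed the factors at each time, with limma on the 8 libraries of that time. In untreated cells 0 of 9 members were called higher (0.741% of 13095 genes were) and 0 lower (0.565%), where limma gave 3 of them (Spi1, Cebpd and Klf4) an unadjusted p under 0.05, and the values of Klf4 did not overlap between genotypes (10.5% of genes did not). At 1 hr Klf4 was higher (0.976%) and Cebpb lower (0.938%), and 4 members did not overlap (15.7%). At 3 hr Klf2 was higher (1.81%) and none lower (1.87%), and 3 did not overlap (13.6%). At 6 hr Cebpa was higher (6.4%) and Spi1, Maf and Klf6 lower (9.92%), and these 4 did not overlap (20.2%). At 9 hr Cebpa was again higher (4.69%) and Spi1 again lower (3.22%), and 4 did not overlap (16.9%). The members' median difference was -0.07 at 6 hr against -0.02 for all genes. After quantile normalization the share of higher among all calls at 6 hr was 50.8% in place of 39.2%, and the members called were Cebpa and Cebpb, both higher.

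Cebpa was the member with the largest difference. At 6 hr Cpeb4-/- libraries were at 9.27, 9.45, 9.19 and 9.25 against 8.55, 8.99, 8.64 and 8.59 in WT. All 4 lay above the highest WT library, mouse 69. The difference was 0.60 (1.52-fold, SE 0.09, 95% CI 0.40 to 0.80, adjusted p = 0.0014), with 0.78 in batch 1 and 0.42 in batch 2. At 9 hr it was 0.53 (1.44-fold, SE 0.10, adjusted p = 0.0112), from 9.43, 9.82, 9.37 and 9.68 in WT to 10.21, 10.06, 10.09 and 10.03, with 0.49 and 0.56 in the batches. Before LPS the difference was 0.07 (95% CI -0.05 to 0.18), and at 3 hr 0.24 (95% CI -0.07 to 0.56), where WT mouse 69 at 9.65 lay above every Cpeb4-/- library. The calls at 6 and 9 hr held without any 1 mouse (0.55 to 0.70 at 6 hr and 0.46 to 0.61 at 9 hr) and after quantile normalization (0.54 and 0.50). At 3 hr the difference became a call without WT mouse 69 (0.41, adjusted p = 0.0286).

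The mean of Spi1 lay below WT in Cpeb4-/- cells at each of the 5 times, and the difference was called at the last pair of them. It was -0.19 at 6 hr (SE 0.05, adjusted p = 0.018) and -0.30 at 9 hr (SE 0.08, adjusted p = 0.0428), after -0.15 before LPS, -0.23 at 1 hr and -0.12 at 3 hr with none of those 3 called. The last came from WT libraries at 14.56, 14.72, 14.59 and 14.50 and Cpeb4-/- libraries at 14.48, 14.14, 14.34 and 14.22. In the batches the difference was -0.17 and -0.21 at 6 hr and -0.35 and -0.24 at 9 hr. The call at 6 hr was lost without Cpeb4-/- mouse 3 (-0.16, adjusted p = 0.057) or WT mouse 87 (-0.16, adjusted p = 0.0516), and with no filter on low genes (adjusted p = 0.0514). That at 9 hr was lost without any 1 of 7 mice, all but Cpeb4-/- mouse 2 (-0.33 to -0.25, adjusted p = 0.0538 to 0.124), with no filter (adjusted p = 0.12) and without the variance trend (adjusted p = 0.0754). After quantile normalization the values were -0.07 (adjusted p = 0.384) and -0.24 (adjusted p = 0.0742). At 1 hr Spi1 did not overlap and was called with all 40 libraries and the mouse as a block (adjusted p = 0.0101), or without WT mouse 69 (-0.26, adjusted p = 0.0421). The fit of 40 libraries without the block made the same calls on the members' genotype differences as the one with it.

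Maf and Klf6 were lower in Cpeb4-/- cells at 6 hr by similar amounts. Maf was at 14.33, 14.32, 14.47 and 14.39 against 14.61, 14.60, 14.55 and 14.62 in WT, -0.22 (1.16-fold, SE 0.05, adjusted p = 0.00741), with -0.26 and -0.17 in the batches. At the other 4 times the genotypes overlapped for Maf. Klf6 was at 15.17, 15.18, 15.25 and 15.14 against 15.35, 15.47, 15.37 and 15.41, -0.22 (1.16-fold, SE 0.05, adjusted p = 0.00959), with -0.22 and -0.21 in the batches. Both calls held without any 1 mouse, and both fell to -0.09 under quantile normalization (adjusted p = 0.184 for Maf and 0.208 for Klf6). Klf6 also did not overlap at 3 hr (-0.18, adjusted p = 0.0723) and at 9 hr (-0.19, adjusted p = 0.0978). Those 2 differences were called with all 40 libraries and the mouse as a block (adjusted p = 0.00852 and 0.00231), and the one at 3 hr without WT mouse 88 (-0.19, adjusted p = 0.029). Untreated and at 1 hr Klf6 differed by 0.03 (95% CI -0.06 to 0.12) and 0.01 (95% CI -0.09 to 0.12).

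At 1 hr Cebpb was lower in Cpeb4-/-, by -0.36 (1.28-fold, SE 0.07, adjusted p = 0.0364), from the values given above, and the batches gave -0.31 and -0.41. The call was lost without any 1 of 6 mice, all but WT mouse 69 and Cpeb4-/- mouse 2 (-0.38 to -0.32, adjusted p = 0.0551 to 0.111), and with no filter, no trend, a batch term or quantile normalization (adjusted p = 0.0545 to 0.0981). Later the means of Cebpb lay above WT by 0.16 (3 hr), 0.17 (6 hr) and 0.05 (9 hr), none called. In batches 1 and 2 the difference was 0.33 and -0.01 at 3 hr, 0.31 and 0.03 at 6 hr and 0.03 and 0.06 at 9 hr. At 6 hr Cebpb was called without Cpeb4-/- mouse 55 (0.21, adjusted p = 0.0401) and after quantile normalization (0.30, adjusted p = 0.0195). Cebpd overlapped between genotypes at all 5 times, with differences from -0.18 to 0.08.

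Klf4 was higher in Cpeb4-/- cells at 1 hr, at 8.64, 8.65, 8.53 and 8.70 against 8.10, 8.34, 8.04 and 8.21, by 0.45 (1.37-fold, SE 0.08, adjusted p = 0.0259), with 0.52 and 0.39 in the batches. The call was lost without any 1 of 6 mice, all but WT mouse 69 and Cpeb4-/- mouse 2 (0.41 to 0.49, adjusted p = 0.0522 to 0.101), and with no filter (adjusted p = 0.0658). Untreated, the difference was 0.36 (SE 0.08, 95% CI 0.19 to 0.53, adjusted p = 0.0537). It was called with the mouse as a block (adjusted p = 0.0239) or without WT mouse 69 (0.43, adjusted p = 0.0183). At 3 and 6 hr the genotypes overlapped for Klf4. At 9 hr they did not (0.33, adjusted p = 0.0716), and the difference was called with the block (adjusted p = 0.0116) or without Cpeb4-/- mouse 2 (0.37, adjusted p = 0.021).

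Klf2 was higher in Cpeb4-/- cells at 3 hr, at 9.08, 9.26, 9.21 and 9.02 against 8.54, 8.96, 8.54 and 8.69, by 0.46 (1.38-fold, SE 0.10, adjusted p = 0.0341), with 0.53 and 0.39 in the batches. The call was lost without any 1 of 6 mice, all but WT mice 69 and 88 (0.41 to 0.50, adjusted p = 0.0689 to 0.122), and with no filter, no trend or a batch term (adjusted p = 0.0576 to 0.101). At 1 hr the genotypes did not overlap either (0.29, adjusted p = 0.0741), and that difference was called with the block (adjusted p = 0.0225) or without WT mouse 69 (0.33, adjusted p = 0.042). For Runx1 no difference was called, and the values ran from -0.13 at 6 hr to 0.19 at 9 hr. It was called at 3 hr without WT mouse 88 (0.16, adjusted p = 0.0477), at 6 hr without Cpeb4-/- mouse 55 (-0.17, adjusted p = 0.0215) and at 9 hr without Cpeb4-/- mouse 2 (0.27, adjusted p = 0.003).

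The marker sums moved with genotype too. They were taken on the deposited scaling only, and the most abundant genes weigh most in them. The summed level of the 10 macrophage markers lay lower in Cpeb4-/- libraries at every time, without overlap (570000 to 650000 against 660000 to 808000 untreated, and 679000 to 754000 against 806000 to 861000 at 6 hr). Of single genes 10.5% did not overlap untreated and 20.2% at 6 hr. At 6 hr the 6 stromal markers summed to 593 to 716 in Cpeb4-/- and 381 to 432 in WT, where Pdgfrb, 1 of the 2 tested, was called (0.67, adjusted p = 0.000218). The 7 T and NK cell markers summed to 255 to 290 and 315 to 413, with both of those tested, Lck (-0.39, adjusted p = 0.0338) and Cd4 (-0.38, adjusted p = 0.0188), lower. At 1 hr, where Klf4 and Cebpb were called, the progenitor and cycling markers lay at 17800 to 20700 in Cpeb4-/- and 14000 to 17300 in WT. At 9 hr, where Cebpa and Spi1 were called, the stromal markers lay at 343 to 530 against 250 to 325, the T and NK cell markers at 107 to 136 against 145 to 168, and the dendritic cell markers at 75.6 to 79.2 against 82.2 to 106. The genotypes were also apart for the B cell markers untreated (59.1 to 68.3 against 72.8 to 99.8), for the mast cell markers at 1 hr and for the erythroid markers at 9 hr, both under 10. The part of these markers in the members' differences was not tested.

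**Figure D4:**
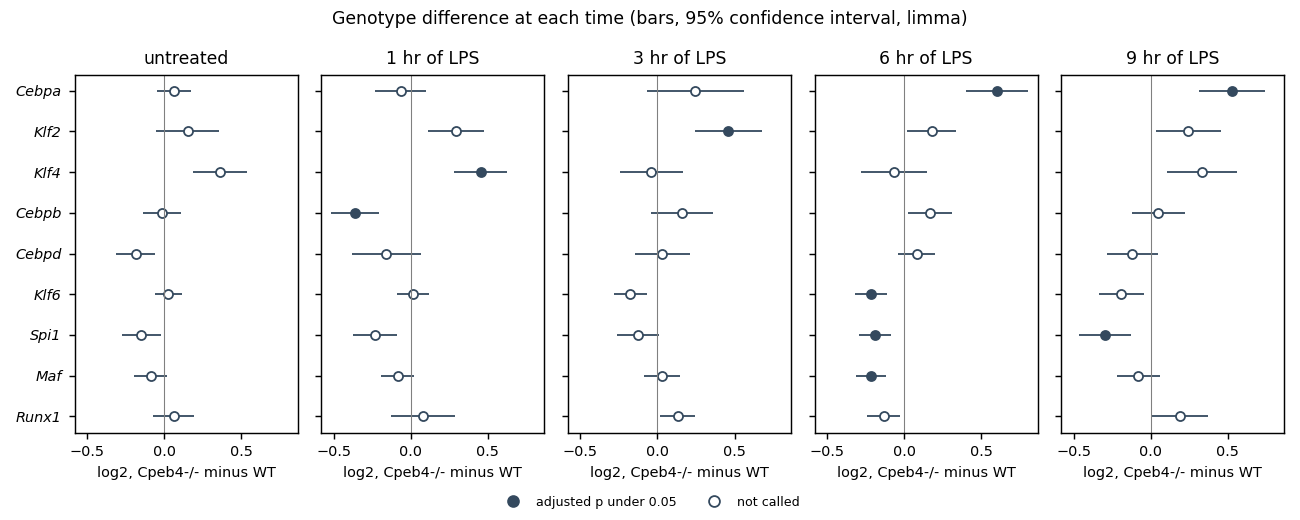
Log2 difference of each member, Cpeb4-/- minus WT (x axis), untreated and at 1, 3, 6 and 9 hr of LPS, with 95% confidence intervals from limma on 8 libraries per time. Filled circles had an adjusted p under 0.05: Klf4 and Cebpb at 1 hr, Klf2 at 3 hr, Cebpa, Klf6, Spi1 and Maf at 6 hr and Cebpa and Spi1 at 9 hr.

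The third comparison tested whether the LPS change itself differed between genotypes. No member was called at 1 hr (0.00763% of all genes were), 3 hr (0.206%) or 9 hr (1.76%), where limma gave 1, 3 and 2 members an unadjusted p under 0.05. At 6 hr 1 member was called (2.94%). This was Klf6, which rose by 1.43 in WT cells and by 1.19 in cells without CPEB4 (interaction -0.24, SE 0.06, 95% CI -0.37 to -0.12, adjusted p = 0.0241). The call was lost without Cpeb4-/- mouse 2, 3 or 62 or WT mouse 88 (-0.25 to -0.23, adjusted p = 0.0538 to 0.136) and under quantile normalization (-0.11, adjusted p = 0.394), where the share of higher among all calls at 6 hr was 44.9% in place of 30.6%. Cebpa fell less in Cpeb4-/- by 0.53 at 6 hr (SE 0.16, adjusted p = 0.0513) and 0.46 at 9 hr (SE 0.16, adjusted p = 0.135), and Klf4 fell more by -0.43 at 6 hr (SE 0.13, adjusted p = 0.068). With the mouse as a block, which uses the fact that each animal gave all times, 3 members were called at 6 hr, Klf6, Cebpa (adjusted p = 0.00112) and Klf4 (adjusted p = 0.0217), and 2 at 9 hr, Cebpa (adjusted p = 0.00553) and Klf6 (-0.22, adjusted p = 0.0192). Without WT mouse 69 Cebpa was called at 6 hr (0.62, adjusted p = 0.000724) and at 9 hr (0.53, adjusted p = 0.00334). Klf4 was called at 6 hr without WT mouse 25 (-0.50, adjusted p = 0.0337), and Klf6 at 9 hr without WT mouse 88 (-0.25, adjusted p = 0.04).

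Across the 40 libraries Spi1 and Cebpa ran against each other (Pearson r of -0.947), as did Cebpa and Cebpd (-0.927) and Maf and Klf2 (-0.887). Klf2 and Klf4 ran together (0.87), and Spi1 and Cebpd too (0.931), whereas the highest value of Runx1 with any other member was 0.538, with Klf6. The libraries share mice and times, so these values describe the time course and carry no test. All correlations here used the deposited values and were not repeated after quantile normalization. That scaling lowered the WT rise at 6 hr from 0.99 to 0.11 for Spi1 and from 1.16 to 0.25 for Maf. The gene most like a member was Denr for Spi1 (0.976), Adora2b for Cebpb (0.973), Dcaf13 for Cebpd (0.984) and Eloa for Maf (0.966). It was Tcp11l2 for Klf2 (0.976), Efr3b for Klf4 (0.972), Trim13 for Klf6 (0.973) and Zbtb11 for Runx1 (0.904). Kmt5c (0.9695) and Zfp395 (0.9682) were among the 3 genes most like Cebpa. Cebpb was also close to Ier3 (0.959) and Atf4 (0.956), and Klf6 to the phosphatase gene Dusp1 (0.96).

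Genes listed under the family name of each member were read next. Of 4 other genes tested on the C/EBP list, 1 rose (39.7% of all genes did) and 2 fell (40.2%) at 6 hr of LPS in WT. They were Ddit3 (0.34, SE 0.09, adjusted p = 0.000626), Cebpg (-0.46, SE 0.04, adjusted p = 8.16e-12) and Cebpz (-0.42, SE 0.05, adjusted p = 4.74e-09). In Cpeb4-/- cells at 6 hr Cebpg, a dimer partner of the other C/EBPs, was higher than in WT by 0.18 (SE 0.04, adjusted p = 0.0104). Of 8 other KLF genes tested 4 rose (39.7%) and 3 fell (40.2%). Among them Klf7 rose by 2.22 (SE 0.07, adjusted p = 8.04e-26) and Klf11 fell by 1.59 (SE 0.10, adjusted p = 1.65e-16), while Klf13 turned under quantile normalization. Klf10, a TGF-beta-inducible repressor, was higher in Cpeb4-/- at 6 hr (0.45, SE 0.08, adjusted p = 0.00396) and 9 hr (0.51, SE 0.06, adjusted p = 0.00157).

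The 3 small MAF genes, which lack a transactivation domain, rose at 6 hr in WT (39.7% of all genes did). Maff rose by 1.40 (SE 0.07), Mafk by 1.29 (SE 0.07) and Mafg by 0.44 (SE 0.05). In Cpeb4-/- cells at 6 hr all 3 were called, where 6.4% of all genes were higher and 9.92% lower. Mafk (-0.32, adjusted p = 0.0164) was lower, and Maff (0.33, adjusted p = 0.00116) and Mafg (0.16, adjusted p = 0.0371) were higher. Of 4 other RUNX genes and partners 0 rose (39.7%) and 2 fell (40.2%) at 6 hr in WT, Cbfa2t3 by 1.98 and Runx2 by 1.45. None differed between genotypes at 6 hr (6.4% of all genes higher, 9.92% lower) or 9 hr (4.69% and 3.22%). Of 14 other ETS genes 10 rose (39.7%) and 3 fell (40.2%), with Ets2 at 2.25, Spic at 1.90 and Etv6 at 1.72 against Ets1 at -1.62. Elf1 and Elf2 turned under quantile normalization. In Cpeb4-/- cells at 6 hr Etv3, a repressor of macrophage proliferation, was lower (-0.63, SE 0.08, adjusted p = 0.000417), and Ets1 (0.47, SE 0.07) and Elk3 (0.45, SE 0.08) were higher.

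Among genes known to be under PU.1 or C/EBP control, 12 of 16 rose (39.7% of all genes did) and 1 fell (40.2%) at 6 hr of LPS in WT. Their median was 0.63 against -0.02 for all genes, but after quantile normalization 5 rose and 6 fell. Csf3r (2.54), Msr1 (2.42), Fcgr1 (2.25) and Cybb (1.75) rose the most. Between genotypes at 6 hr the test called 0 of the 16 up (6.4% of all genes were) and 6 down (9.92%) in Cpeb4-/-. Their median was -0.16 against -0.02 for all genes. Those called down included Lyz2 (-0.38, SE 0.10), Fcgr1 (-0.28, SE 0.05), Cd68 (-0.26, SE 0.04) and Csf1r (-0.25, SE 0.05). With quantile normalization 1 was higher and 3 lower, Lyz2 and Csf1r being among those lost. Il10, which MAF drives, rose by 2.33 at 6 hr in WT and was lower in Cpeb4-/- cells at that time (-0.78, SE 0.08, adjusted p = 0.000116). Of 7 genes under KLF2 or KLF4 control tested at 6 hr, 3 were higher in Cpeb4-/- (6.4% of all genes were), among them Arg1 (0.57, SE 0.13) and S1pr1 (0.35, SE 0.07). Mrc1 was lower (-0.44, SE 0.07), where 9.92% of all genes were. At that time limma called neither Klf2 (0.18, adjusted p = 0.124) nor Klf4 (-0.07, adjusted p = 0.704) itself.

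Other regulators of the myeloid programme moved in both directions. At 6 hr in WT 17 of 29 rose (39.7% of all genes did) and 11 fell (40.2%), while after quantile normalization 13 rose and 14 fell. The largest changes were those of Gfi1, a repressor of alternative lineage genes, at 4.83 (SE 0.09), Nfil3 at 2.29 (SE 0.06), Hhex at -2.24 (SE 0.11) and Irf4 at -1.93 (SE 0.18). Of 14 AP-1 and NF-kB factors all rose at 1 hr (19.4% of all genes did in WT). At 6 hr 10 rose (39.7%) and 2 fell (40.2%), with Batf at 3.54 (SE 0.08). At 6 hr 4 of 28 tested regulators were higher (6.4% of all genes were) and 3 lower (9.92%) in Cpeb4-/- cells. The higher ones included Nr4a1 (0.65, SE 0.10, adjusted p = 0.00127), Bhlhe40 (0.57, SE 0.12, adjusted p = 0.00923) and Batf3 (0.54, adjusted p = 0.0142), and the lower ones are not named here. In the list of inflammatory genes used to check the LPS treatment, all 10 rose at 6 hr in both genotypes. Of all genes 39.7% did in WT and 38.4% in Cpeb4-/-. The median of the 10 was 4.02 in WT and 3.87 in Cpeb4-/-.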

How the data were processed

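Poly(A) RNA of 40 libraries was sequenced. By the submitters' processing notes and the study's methods, reads were aligned with STAR 2.3.0e to mm10 and counted per gene with featureCounts. The deposited values are log2: the authors took the rlog of DESeq2, which corrects for library size and shrinks low genes toward their mean. Read totals cannot be recovered from these values, and the alignment totals in the study's supplement were not used here. Members and lists were chosen with earlier results of these data known.

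Groups came from the labels. limma 3.58.1 (R 4.3.3, trend) was used on genes whose rlog averaged 2.322 (log2 of 5) or more, which the 9 members passed. Genotypes were compared on the 8 libraries of each time, and LPS changes, successive steps and the interaction in 1 fit of 10 group means. P-values were adjusted by Benjamini-Hochberg over all genes, with a threshold of 0.05. Mouse numbers pair libraries, since each animal gave 5: over the 80 comparable pairs of libraries of 1 mouse, the deviations from the group means had a median r of 0.29 (68 over 0.1, lowest -0.194), against -0.091 between mice. Alternatives were other filters, no trend, robust moderation, a batch term, the mouse as a block, quantile normalization, 1 genotype alone and leaving out each mouse. Genes named were the members, the 3 genes most correlated with each, and from each list up to 4 called genes with the largest change. The scripts were tested on simulated data. Per-length levels used GENCODE transcripts matched to RefSeq, and promoters came from RefSeq (GRCm38.p6). Some genes of the lists are not reported here.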

Additional observations from a re-analysis of the deposited data

Results flagged for a closer look

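In 3 of 90 groups of 4 libraries, 1 library stood apart from the other 3, by a gap, as a share of the group's range, above the critical value of Dixon's test, and chance alone marks about 1 group in 20. Cebpb in WT mouse 87 was at 14.65 at 6 hr, where the others were at 14.47 to 14.48 (gap 0.932 of the range). Klf4 in Cpeb4-/- mouse 62 was at 7.04 at 6 hr, where the others were at 7.23 to 7.26 (0.837). Klf6 in WT mouse 88 was at 15.15 at 3 hr, where the others were at 15.21 (0.894). The rise of Klf6 at 6 hr of LPS differed between genotypes by -0.24 in the interaction test.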

How the results depend on the processing

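Of the counts of members called, those of the LPS changes and of the successive steps stayed within 1.5 times their value under each alternative run. The other counts moved as follows. For the genotype difference in untreated cells 0 members became 1 with all 40 libraries, with or without the replicate block, and 0 to 1 with 1 mouse left out. At 1 hr 2 became 0 with no filter, 1 without the variance trend, with a batch term or with quantile normalization, 4 with all 40 libraries with or without the block, and 0 to 4 with 1 mouse left out. At 3 hr 1 became 0 with no filter, without the trend or with a batch term, 2 with all 40 libraries with or without the block, and 0 to 3 with 1 mouse left out. At 6 hr 4 became 2 with quantile normalization and 3 to 6 with 1 mouse left out. At 9 hr 2 became 1 with no filter, without the trend or with quantile normalization, 4 with all 40 libraries with or without the block, and 1 to 4 with 1 mouse left out. For the interaction at 6 hr 1 became 2 with a mean rlog of at least 5, 3 with the replicate block, 0 with quantile normalization and 0 to 2 with 1 mouse left out, and at 9 hr 0 became 1 with a mean rlog of at least 5, 2 with the block, and 0 to 1 with 1 mouse left out. The block changed no call of a single member beyond those given with the results and the step of Spi1 from 3 to 6 hr in WT, 0.14, which it brought under the threshold (adjusted p = 0.0301, against 0.0544, and 0.0415 without Cpeb4-/- mouse 2), and which was -0.13 under quantile normalization (adjusted p = 0.0535).

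Quantile normalization turned the LPS change of Spi1 at 1 hr (-0.00584 in WT, -0.0931 in Cpeb4-/-) and at 9 hr in Cpeb4-/- (-0.0855), of Klf6 at 9 hr (-0.0654 and -0.21) and of Maf at 9 hr (-0.10 and -0.0419). It also turned that of Maf at 3 hr in Cpeb4-/- (-0.58), of Runx1 in WT at 6 hr (-0.0536) and 9 hr (-0.19) and of Runx1 in Cpeb4-/- at 3 hr (-0.20), 6 hr (-0.21) and 9 hr (-0.0755). Of the steps it turned Maf from 1 to 3 hr (-0.20 and -0.0539), Klf6 in WT (-0.00799) and Spi1 in WT (-0.13) and Cpeb4-/- (-0.17) from 3 to 6 hr, and Cebpb in WT from 6 to 9 hr (0.0742). From 3 to 6 hr it also turned Klf4 in both genotypes (0.0491 and 0.042) and Runx1 in Cpeb4-/- (-0.00925), and at 9 hr the genotype difference of Maf (0.000307), none of them called before or after.

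Over all genes, the number called between genotypes ranged over the alternatives from 44 to 414 in untreated cells (171 as reported), 40 to 4323 at 1 hr (251), 76 to 2584 at 3 hr (481), 1288 to 2331 at 6 hr (2129) and 387 to 4575 at 9 hr (1029). For the interaction it ranged from 0 to 8 at 1 hr (1), 5 to 72 at 3 hr (27), 84 to 1032 at 6 hr (385) and 89 to 654 at 9 hr (231). The cause of these shifts was not tested. The values carry no depth, so counting error could not be given.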
